A study of Saccharomyces cerevisiae with 41 samples.

Results

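The region described here is the 3′ minor domain of the yeast 18S rRNA, nucleotides 1632 to 1800 of the deposited table, which hold helix 44 (h44, nucleotides 1634 to 1767), helix 45 (h45, nucleotides 1769 to 1792) and the 3′ end. Members were taken by position alone, and there are 169 of them among the 1800 nucleotides of the molecule. Of these, 134 lie in h44, 24 in h45 and 8 after h45, while G1768 stands between the helices and 2 nucleotides precede h44. Reverse transcription drop-off was measured in 41 samples of Saccharomyces cerevisiae BY4741, which the table gives as 17 columns, 1 mean per group made by the authors. The table holds no replicate values and no depths, so a column comes without an SD, its depth is unknown, and an SD or SE in what follows measures how far the purifications within a stage lie apart.

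The late particles probed with 1M7 were purified through nob1-TAP (Nob1, the nuclease that cuts the 18S 3′ end, 2 samples), rio1-HTP (Rio1, an atypical kinase, 3 samples) and fun12-TAP (Fun12, the translation initiation factor eIF5B). Fun12 gave 80S ribosomes (3 samples) and, in a strain that also carries GAL::3HA-fap7 and so makes the ATPase Fap7 from a galactose-regulated gene, particles called 80S-like (2 samples). The mid-early particles probed with 1M7 came from enp1-HTP (2 samples), ltv1-HTP (2), rio2-HTP (2) and tsr1-HTP (3), tags on factors that ride on cytoplasmic pre-40S particles. The labels give 18S rRNA for 80S and 20S pre-rRNA for the other 7 purifications. NAI was used on 80S (2 samples), Rio1 (1 sample) and Tsr1 (2 samples), and DMS on 80S (3 samples). Untreated RNA came as a late control (3 samples, from nob1-TAP and fun12-TAP cells, labelled 18S), a mid-early control (4 samples, from the 4 mid-early strains, labelled 20S), DMSO columns of 80S and of Tsr1 (2 samples each) and a control of the DMS set (3 samples, fun12-TAP). Cells grew in YPD or in YPG/R, every particle was caught through a tagged bait, and nothing in the labels says that the samples of a group came from separate cultures. Columns of 1 stage share 1 control, so the p-values cover the spread between purifications and not the error of that control. The strains behind the controls define the stages for all baits but Rio1, which was counted as late.

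h44 is the long helix that runs down the intersubunit face of the small subunit, and its base forms the decoding site where codon and anticodon are read. h45 is a short hairpin beside it whose loop carries a pair of dimethylated adenines made by Dim1, and it packs against h44 in the mature subunit. In pre-40S particles assembly factors sit over this face, and the 20S pre-rRNA continues beyond the 18S 3′ end until Nob1 cuts it.

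4 stretches carry most of the results, and their sequences are taken from the deposited table in RNA letters, with capitals for the nucleotides to which the results return. In the start of h44 the capitals mark C1639, which is ribose-methylated, and G1645 of the decoding site. In the top of h44 they mark U1687 and U1688 on its 5′ side and A1701 and A1702 in its terminal loop. In the 3′ strand of h44 with the linker they mark U1738, A1740, the decoding adenines A1755 and A1756, and G1768. In h45 and the 3′ end they mark C1773, which is acetylated, the dimethylated A1781 and A1782, and the last nucleotide A1800.
Start of h44, C1634 to G1658: caccgCccgucGcuaguaccgauug
Top of h44, C1686 to A1712: cUUagagaagggggcAAcuccaucuca
3′ strand of h44 and linker, G1736 to G1768: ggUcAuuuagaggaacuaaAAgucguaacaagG
h45 and 3′ end, U1769 to A1800: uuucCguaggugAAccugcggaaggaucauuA

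The drop-off rate is the fraction, between 0 and 1, that the authors list for stops at a nucleotide. Reactivity below is the treated rate minus the matched control rate, scaled per column by dropping the highest 2% of nucleotides and dividing by the average of the next 8%, so 1 is the level of a strongly modified nucleotide and a value below 0 means a treated rate under its control. Each late particle was set against the late control and each mid-early particle against the mid-early control, and NAI against the DMSO columns (80S DMSO for 80S, Tsr1 DMSO for Rio1 and Tsr1). Among the 8 1M7 columns the average used for scaling was smallest in 80S, 0.0213, and largest in Rio1, 0.0392. The same difference in rate thus gives a larger scaled value in 80S, up or down. A nucleotide is called reactive at 0.3 or more. The DMS data placed the modified base 1 nucleotide 5′ of the listed stop, and the names below are those of the listed stop.

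**Figure D1:**
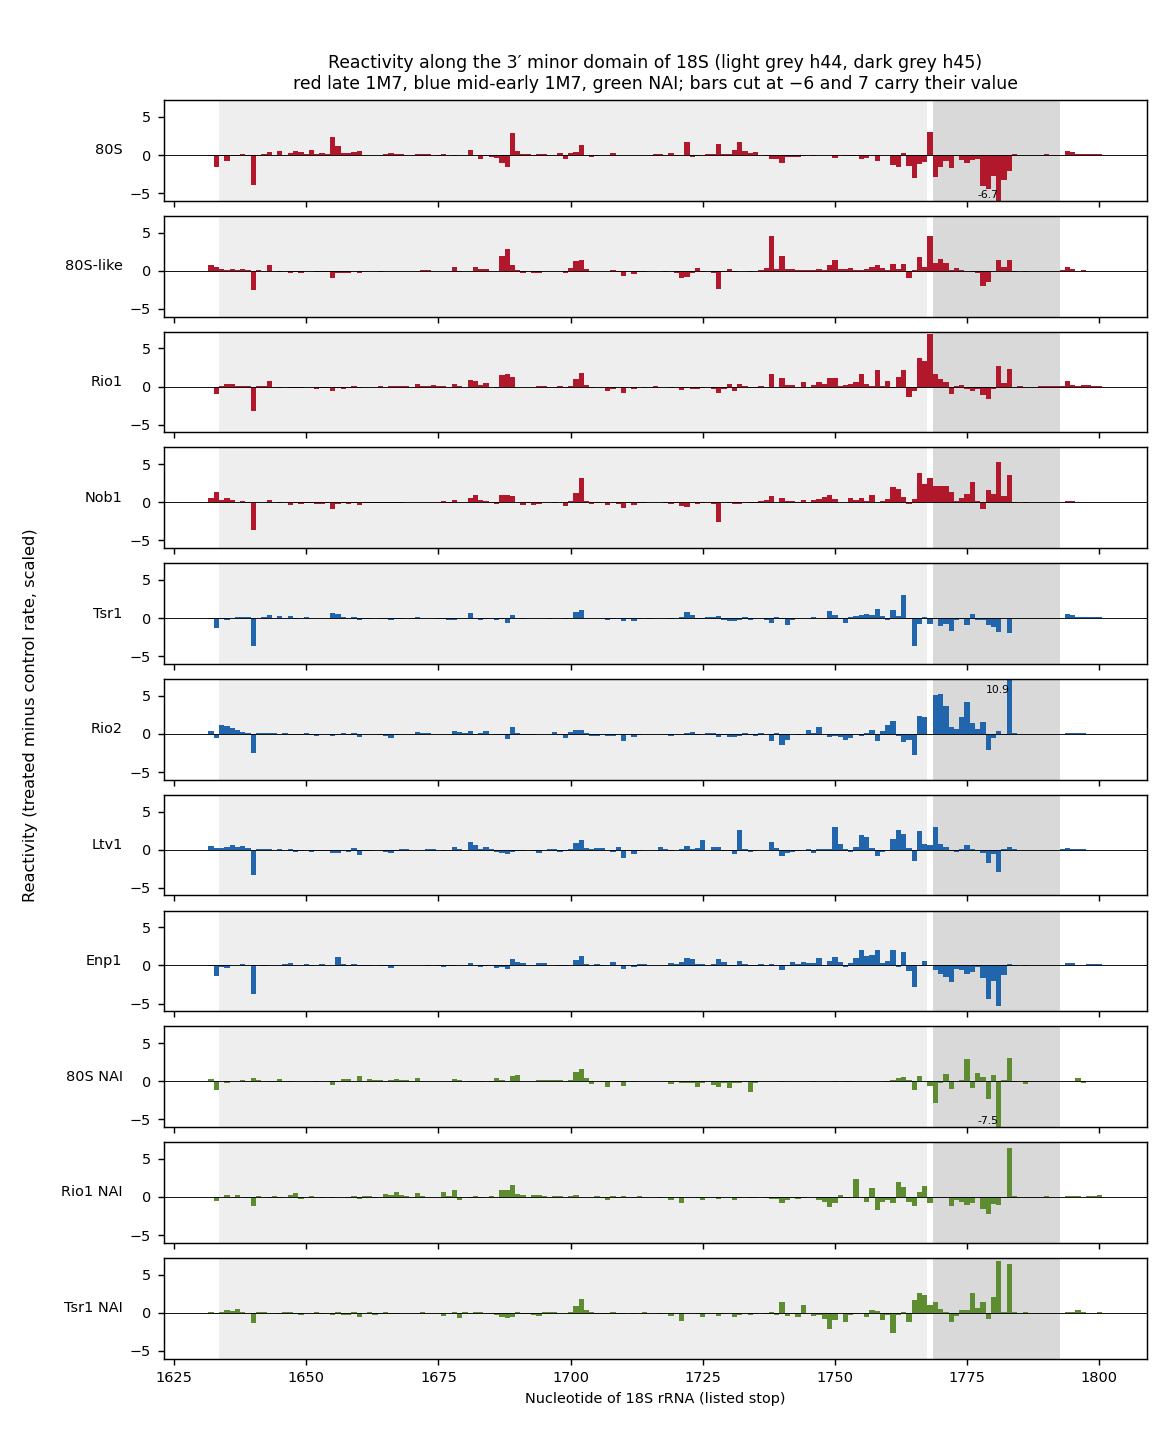
Reactivity (scaled, no unit) of each listed stop from the start to the end of the region in the 4 late 1M7 columns (red, top), the 4 mid-early 1M7 columns (blue) and the 3 NAI columns (green), with h44 in light grey and h45 in dark grey. Many of the tall bars stand in the terminal loop of h44, at its 3′ end and in the first part of h45. The C1640 stop points down in all 8 1M7 columns. With 1M7 most of the taller h45 bars point up in Rio2 and Nob1 and down in 80S and Enp1.

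Modification by 1M7 was patchy along the region, and its amount depended on the particle. In the late columns, 44 of the 169 nucleotides were reactive in Nob1 (26.0%, against 17.5% of all nucleotides of the molecule), 38 in Rio1 (22.5%, against 16.7%), 34 in 80S-like (20.1%, against 15.6%) and 26 in 80S (15.4%, against 16.5%). In the mid-early columns, 33 were reactive in Enp1 (19.5%, against 17.5%), 34 in Ltv1 (20.1%, against 16.7%), 33 in Rio2 (19.5%, against 17.8%) and 22 in Tsr1 (13.0%, against 15.8%). The region thus lay above the molecule as a whole in 6 columns and below it in 80S and Tsr1. With NAI, 20 nucleotides were reactive in 80S (11.8%, against 11.8%), 19 in Rio1 (11.2%, against 12.8%) and 23 in Tsr1 (13.6%, against 13.2%). In all 8 1M7 columns 2 nucleotides were reactive, A1701 and A1702 (1.18%, against 2.45% of the molecule), and 75 were reactive in none (44.4%, against 55.9%). A further 6, C1640, C1686, G1699, U1710, A1712 and G1786, were below their control in all 8 columns (3.55%, against 16.1%).

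**Figure D2:**
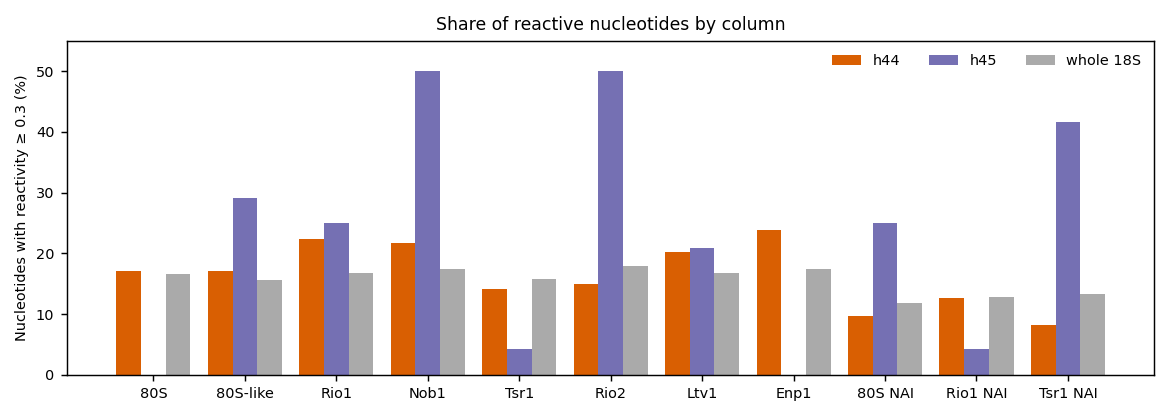
Percent of nucleotides with a reactivity of at least 0.3 (vertical axis) in h44, h45 and the whole 18S for the 8 1M7 and 3 NAI columns (horizontal axis). h44 stays between 8.21% and 23.9% in every column, while h45 runs from 0% in 80S and Enp1 to 50.0% in Nob1 and Rio2.

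The stage comparison asked which nucleotides differ between late and mid-early particles. At the stop listed at G1768, between h44 and h45, reactivity was higher in the late particles. If 1M7 shares the offset seen with DMS, this stop reads G1767, the last base of h44, and the linker base G1768 is read at the U1769 stop, where the stages overlapped (limma adjusted p = 0.877). The treated rates at the G1768 stop were 0.163 in Nob1, 0.309 in Rio1, 0.205 in 80S-like and 0.101 in 80S, against a late control of 0.0382. The mid-early rates were 0.0876 in Enp1, 0.107 in Ltv1, 0.0849 in Rio2 and 0.0665 in Tsr1, against a control of 0.0855. Scaled, the reactivities were 3.22 in Nob1, 6.91 in Rio1, 4.62 in 80S-like and 2.96 in 80S, against 0.0669 in Enp1, 0.65 in Ltv1, -0.0171 in Rio2 and -0.711 in Tsr1. The stages did not overlap, and Rio1 was the highest. In limma's moderated test over 504 nucleotides with Benjamini-Hochberg adjustment the log2 difference was 4.51 with an SE of 0.69 and an adjusted p of 0.00532. The controls themselves differed here, the late one being lower, and DMSO RNA gave 0.13 in 80S and 0.0849 in Tsr1, the other way round. With 1 common control the log2 difference was 2.18 (limma adjusted p = 0.0585), and with treated rates alone it was 0.84 (limma adjusted p = 0.153). With each particle set against the control of the same labelled RNA it was 4.13 (limma adjusted p = 0.0134). The call was thus lost with a common control or none, and kept with controls matched by RNA as well as by stage. Over all 19 alternatives adjusted p ran from 0.000831 to 0.153. NAI gave -0.631 in 80S and -0.837 in Rio1, against 1.07 in Tsr1, so the order seen with 1M7 was not seen with NAI.

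Elsewhere in the region no nucleotide passed. A mean reactivity of at least 0.1 was required for the test, which 56 of the 169 nucleotides met and 113 did not. Of the 56, 1 rose in the late particles (1.79%, against 2.58% of the 504 tested in the molecule) and 0 fell (against 3.57%); at an unadjusted limma p of 0.05 or less there were 5. Late and mid-early columns did not overlap at 1 of the 56 with late higher (against 3.57%) and at 0 with late lower (against 10.1%). The median log2 difference was 0.09 over the 56, with 29 positive and 27 negative, and -0.29 over all 504, with 214 positive and 290 negative.

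The count depended on the 80S column, and 4 nucleotides rose when it was left out. The late group then held the 3 particles with 20S pre-rRNA, Nob1, Rio1 and 80S-like, and limma called 4 of 55 nucleotides as rises, U1687, U1688, U1738 and G1768 (7.27%, against 10.1% of 524 tested), and 1 as a fall, U1723 (1.82%, against 13.0%). U1687 and U1723 were named after their values were seen. At U1687, on the 5′ side near the top of h44, the reactivities were 0.947 in Nob1, 1.54 in Rio1, 1.88 in 80S-like and -1.05 in 80S, against -0.241 in Enp1, -0.424 in Ltv1, -0.106 in Rio2 and -0.159 in Tsr1. Its neighbour U1688 had 0.907 in Nob1, 1.61 in Rio1, 2.9 in 80S-like and -1.56 in 80S, against -0.488 in Enp1, -0.591 in Ltv1, -0.663 in Rio2 and -0.668 in Tsr1. At both stops the 3 late 20S particles stood above every mid-early particle, and the scaled 80S value lay below them all. Before subtraction 80S was still the lowest at U1687, but at U1688 its rate, 0.061, lay among the mid-early rates. The untreated rates were 0.0619 in the late and 0.0548 in the mid-early control at U1687, and 0.0941 and 0.0802 at U1688. With 80S in the fit the log2 differences were 2.93 (SE 0.86, limma adjusted p = 0.0733) and 3.08 (SE 0.92, limma adjusted p = 0.0757). Without it they were 3.91 (SE 0.44, limma adjusted p = 0.000839) and 4.11 (SE 0.50, limma adjusted p = 0.00119). With treated rates alone they were 0.65 and 0.77 (limma adjusted p = 0.217 and 0.172). Over the alternatives fitted, adjusted p ran from 0.000839 to 0.343 at U1687 and from 0.00119 to 0.327 at U1688. With NAI Rio1 again stood above Tsr1, with 0.913 and 0.951 in Rio1, against -0.607 and -0.718 in Tsr1; 80S had 0.171 and 0.0455, above Tsr1, whereas with 1M7 it was below.

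On the 3′ strand of h44, U1738 and A1740 were also high in 80S-like and the other late 20S particles. Reactivity at U1738 was 0.774 in Nob1, 1.7 in Rio1, 4.54 in 80S-like and -0.572 in 80S, against 0.19 in Enp1, 0.987 in Ltv1, -0.978 in Rio2 and -0.58 in Tsr1. The 80S-like value was the highest of the 8, and Ltv1 overlapped the late particles. The log2 difference at U1738 was 1.96 (SE 1.15, limma adjusted p = 0.330) with 80S and 3.03 (SE 0.93, limma adjusted p = 0.0449) without it, within a range of adjusted p from 0.0449 to 0.836 over the alternatives. Its controls were 0.0205 in the late and 0.0491 in the mid-early pool, and with 1 common control the log2 difference was 1.20 (limma adjusted p = 0.559). At A1740 reactivity was 0.538 in Nob1, 1.14 in Rio1, 1.93 in 80S-like and -0.986 in 80S, against -0.538 in Enp1, -0.828 in Ltv1, -1.4 in Rio2 and -0.171 in Tsr1, and the nucleotide did not reach the mean needed for the test. Untreated rates at A1740 were 0.0278 in the late control and 0.0709 in the mid-early control, so the late values are set against a lower background; the treated rates, 0.0487 in Nob1, 0.0725 in Rio1, 0.0972 in 80S-like and 0.0068 in 80S, overlapped those of the mid-early particles, 0.0537 in Enp1, 0.0434 in Ltv1, 0.0263 in Rio2 and 0.0663 in Tsr1. U1723 lay the other way, with 0.0491 in Nob1, -0.263 in Rio1, -0.354 in 80S-like and -0.279 in 80S, against 0.866 in Enp1, 0.106 in Ltv1, 0.195 in Rio2 and 0.431 in Tsr1, and it did not reach that mean either. Without 80S it was tested and fell, by 1.88 on the log2 scale with an SE of 0.59 (limma adjusted p = 0.0479). Its controls also differed, 0.0243 in the late and 0.0093 in the mid-early one. Over the region 9 nucleotides were at 0.3 or more in Nob1, Rio1 and 80S-like and higher there than in the other 5 columns (5.33%, against 3.67% of the molecule), namely U1682, U1687, U1688, A1701, A1702, A1740, G1768, A1781 and A1782. At A1781 and A1782 the late control was lower too, and the treated rates overlapped. At A1781 the controls were 0.215 in late and 0.346 in mid-early, and Rio1 (0.32) and 80S-like (0.264) lay below Rio2 (0.359). At A1782 the controls were 0.95 and 0.977, and Rio1 (0.967) and 80S-like (0.969) lay below Tsr1 (0.978).

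**Figure D3:**
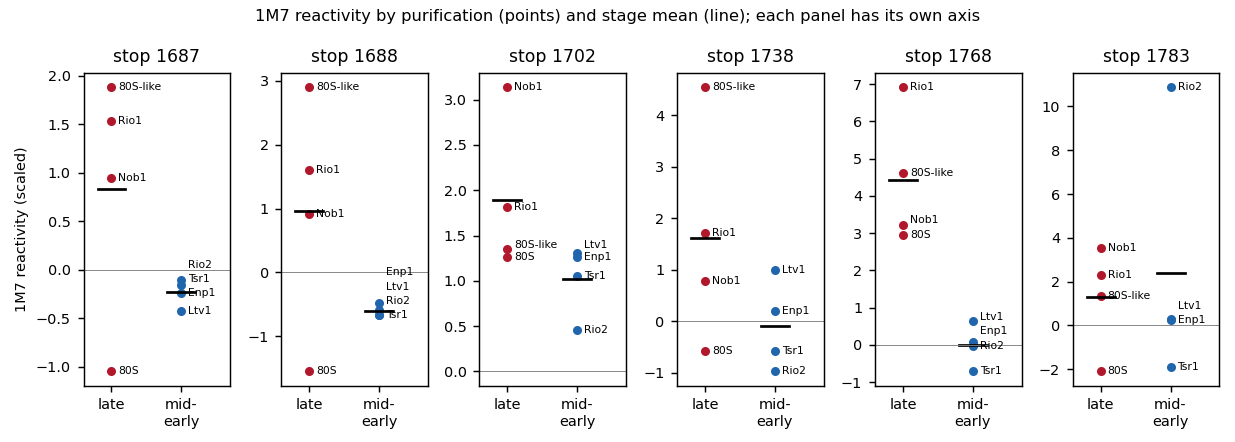
1M7 reactivity (scaled, own axis per panel) at 6 listed stops, with the 4 late purifications (red, left) and the 4 mid-early ones (blue, right) as points and the stage mean as a line. The stages separate at G1768; at U1687 and U1688 the 80S point lies below all others, and at C1783 the Rio2 point lies far above the rest.

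At 2 stops of the predicted terminal loop of h44, A1701 and A1702, 1M7 reactivity was found in every particle, and the other stops there were lower. Reactivity at A1701 was 1.27 in Nob1, 0.996 in Rio1, 1.22 in 80S-like and 0.36 in 80S, against 0.689 in Enp1, 0.889 in Ltv1, 0.477 in Rio2 and 0.774 in Tsr1. At A1702 it was 3.13 in Nob1, 1.82 in Rio1, 1.36 in 80S-like and 1.27 in 80S, against 1.27 in Enp1, 1.31 in Ltv1, 0.458 in Rio2 and 1.06 in Tsr1. Nob1 was the highest at both stops, and the stages overlapped. The predicted loop runs from G1699 to A1702. The stop at G1699 was below its control in all 8 columns, and C1700 lay between -0.0322 in Tsr1 and 0.339 in 80S-like. C1703, which reads A1702 if 1M7 shares the offset seen with DMS, lay between 0.0626 in 80S and 0.238 in Ltv1. The stage means at A1702 were 1.89 ± 0.862 in late and 1.02 ± 0.393 in mid-early particles (SD, n = 4 each), and the log2 difference, 0.83 with an SE of 0.47, did not pass (limma adjusted p = 0.321). NAI marked A1701 and A1702 as well, with 1.27 and 1.66 in 80S, against 0.924 and 1.75 in Tsr1, but Rio1 had 0.204 and 0.0163, a single sample. Next to U1688 on the 5′ strand, A1689 was highest in 80S, with 0.873 in Nob1, 1.2 in Rio1, 0.695 in 80S-like and 2.95 in 80S, against 0.884 in Enp1, -0.286 in Ltv1, 0.868 in Rio2 and 0.388 in Tsr1, and NAI gave 0.744 in 80S, 1.59 in Rio1 and -0.559 in Tsr1.

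At the decoding site the reactivity of the 3′ strand differed between particles of the same stage. The conserved adenines A1755 and A1756 inspect the codon-anticodon helix, and on the offset seen with DMS they are read at the stops A1756 and G1757. The A1756 stop had 0.229 in Nob1, 0.397 in Rio1, 0.208 in 80S-like and -0.457 in 80S, against 1.23 in Enp1, 1.68 in Ltv1, 0.122 in Rio2 and 0.518 in Tsr1. The G1757 stop had 1.02 in Nob1, 0.0295 in Rio1, 0.534 in 80S-like and -0.0411 in 80S, against 1.35 in Enp1, 0.236 in Ltv1, 0.538 in Rio2 and 0.384 in Tsr1. 80S was the lowest at both, Ltv1 was the highest at A1756 and low at G1757, and Nob1 was close to Enp1 at G1757 only. The stop before them, A1755, reads A1754 on that offset. It had 0.524 in Nob1, 1.68 in Rio1, 0.0513 in 80S-like and -0.512 in 80S, against 2.02 in Enp1, 1.92 in Ltv1, -0.289 in Rio2 and 0.376 in Tsr1. The log2 differences were -1.50 (SE 0.78) at A1756, -1.01 (SE 0.86) at G1757 and -0.90 (SE 1.14) at A1755, and none passed (limma adjusted p = 0.295, 0.486 and 0.64). On the 5′ strand G1645 is read at the C1646 stop if 1M7 shares that offset. There the 8 columns lay between -0.051 in Rio1 and 0.128 in Enp1, none of them reactive. The stop listed at G1645 was reactive in 80S alone among the 8, at 0.539, and lowest in 80S-like, at -0.22. Further up that strand A1655 was highest in 80S, with -0.839 in Nob1, -0.583 in Rio1, -1.01 in 80S-like and 2.36 in 80S, against 0.0918 in Enp1, -0.439 in Ltv1, -0.331 in Rio2 and 0.703 in Tsr1. NAI gave -0.506 there in 80S and -0.287 in Tsr1, so the 80S value was not seen with NAI.

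The C1640 stop, 1 nucleotide 3′ of the ribose-methylated C1639, was a strong pause in untreated RNA and lay below its control after 1M7 in every particle. The untreated rates were 0.199 in the late control, 0.161 in 80S DMSO and 0.165 in the control of the DMS set, against 0.21 in the mid-early control and 0.217 in Tsr1 DMSO. After 1M7 they were 0.0566 in Nob1, 0.0749 in Rio1, 0.109 in 80S-like and 0.115 in 80S, against 0.0906 in Enp1, 0.0996 in Ltv1, 0.132 in Rio2 and 0.111 in Tsr1. No treated 1M7 column reached its control, and the scaled difference ran from -3.96 in 80S to -2.45 in Rio2. Before scaling the drop was largest in Nob1, at -0.143, and smallest in Rio2, at -0.0778, with -0.0844 in 80S. With NAI the rates were 0.178 in 80S, 0.141 in Rio1 and 0.149 in Tsr1, above the DMSO rate in 80S only. At C1639 itself every rate was 0.00553 to 0.02.

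The last 25 nucleotides of h44, U1743 to G1767, were set apart after their values were seen. With 1M7 they were quiet in 80S and reactive in the other particles. Reactive nucleotides numbered 15 in Nob1, 14 in Rio1, 10 in 80S-like and 0 in 80S, against 16 in Enp1, 9 in Ltv1, 8 in Rio2 and 9 in Tsr1. The mean treated rate was 0.047 in Nob1, 0.0493 in Rio1, 0.0332 in 80S-like and 0.00979 in 80S, and it ran from 0.0382 in Rio2 to 0.0557 in Ltv1 among mid-early particles. 80S was thus the only 1M7 column below 0.0332. The mean NAI rate was 0.00488 in 80S, 0.0479 in Rio1 and 0.0404 in Tsr1. Once the DMSO rate was subtracted, 3 nucleotides were reactive with NAI in 80S, 6 in Rio1 and 5 in Tsr1. Mean NAI reactivity was 0.0134 in 80S, -0.0185 in Rio1 and -0.179 in Tsr1, so by this measure 80S was not the lowest. Untreated RNA showed the same order of rates, with 0.0201 in the late control and 0.00441 in 80S DMSO, against 0.0371 in the mid-early control and 0.049 in Tsr1 DMSO. At 24 of these 25 nucleotides both of those 18S columns were below both 20S columns; over the region that held for 54 nucleotides (32.0%, against 23.1% of the molecule). Among the 25, rates listed at 0 numbered 7 in 80S DMSO, and with NAI 10 in 80S, 6 in Rio1 and 6 in Tsr1. No 1M7 column had more than 2. The low level of 80S was thus present without any reagent in 80S DMSO. The third 18S column, the control of the DMS set, came from the same strain and averaged 0.0253. It was below both 20S columns at 19 of the 25, and these include 7 nucleotides listed at 0. Most of the 25 lie after A1750, where the DMS set was not read, so this column cannot settle the level there. The part of the untreated level in the 80S reactivities was not tested. In the first 25 nucleotides of h44 the mean rates of the same columns were close, 0.021 and 0.0229, against 0.0222 and 0.0216.

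**Figure D4:**
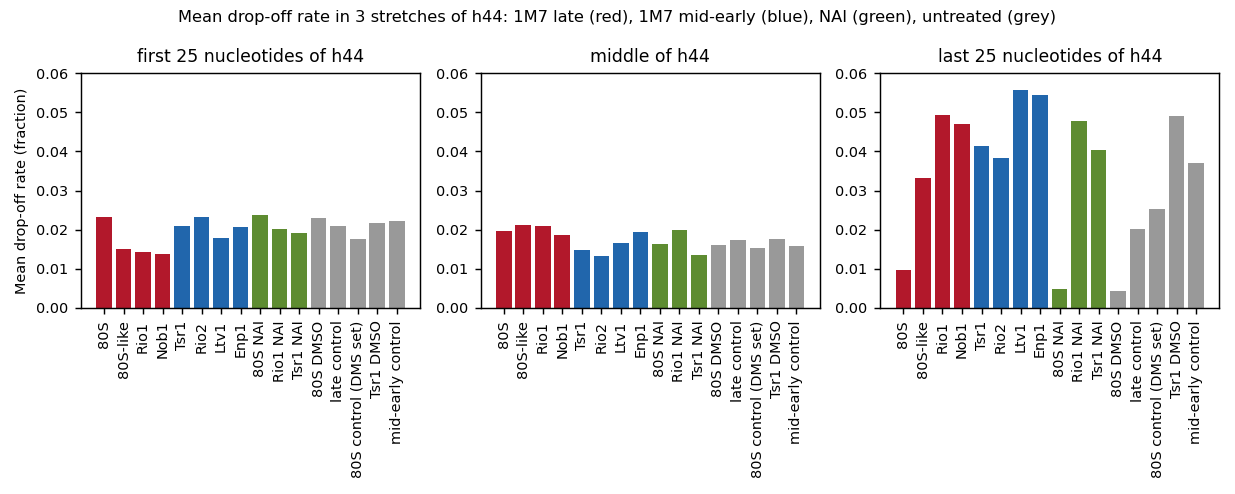
Mean drop-off rate (fraction) over the first 25, the middle 84 and the last 25 nucleotides of h44 for the 1M7 columns (late red, mid-early blue), the NAI columns (green) and the untreated columns (grey). In the last 25 the 80S, 80S NAI and 80S DMSO bars lie at 0.0098, 0.0049 and 0.0044, below every other bar, while the other stretches show no such gap.

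With 1M7, h45 divided the particles. In its 24 nucleotides, 12 were reactive in Nob1, 6 in Rio1, 7 in 80S-like and 0 in 80S, against 0 in Enp1, 5 in Ltv1, 12 in Rio2 and 1 in Tsr1. NAI gave other counts, with 6 reactive in 80S, 1 in Rio1 (a single sample) and 10 in Tsr1. The order of Rio1 and Tsr1 was thus reversed with NAI, and 80S was not without reactive nucleotides. The mean treated 1M7 rates over h45 were close, 0.0875 in Rio1 and 0.0874 in Tsr1. Their controls were 0.0811 for late and 0.0994 for mid-early particles. The part of the controls in the 1M7 order was not tested. All reactive nucleotides lay among the first 15, up to the C1783 stop behind the dimethylated adenines, and from C1784 to G1792 the mean rate of every column was at most 0.00321. With 1M7 Rio2 led at the 5′ side of the hairpin. At U1769 reactivity was 2.19 in Nob1, 1.63 in Rio1, 1.03 in 80S-like and -2.87 in 80S, against -0.545 in Enp1, 2.97 in Ltv1, 5.04 in Rio2 and -0.143 in Tsr1. At U1770 it was 2.1 in Nob1, 1.05 in Rio1, 1.6 in 80S-like and -1.54 in 80S, against -1.08 in Enp1, 0.726 in Ltv1, 5.19 in Rio2 and -1.06 in Tsr1. At U1775 it was 1.06 in Nob1, -0.33 in Rio1, -0.0219 in 80S-like and -1.09 in 80S, against -1.17 in Enp1, 0.566 in Ltv1, 4.18 in Rio2 and -0.907 in Tsr1. Rio2 was the highest of the 8 columns at all 3 stops, and 80S or Enp1 the lowest. These stops lie 5′ of the A1782 stop, whose rate was 0.879 or more in every 1M7 column. The number of reads behind these stops is unknown. None of the 3 passed the stage test (limma adjusted p = 0.877, 0.717 and 0.587), and the SD within a stage ran from 0.892 to 2.96 at these stops.

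At C1783, the stop just 3′ of the dimethylated A1782, the treated rate was 0.267 in Nob1, 0.22 in Rio1, 0.178 in 80S-like and 0.0843 in 80S, against 0.164 in Enp1, 0.166 in Ltv1, 0.501 in Rio2 and 0.105 in Tsr1. The controls were 0.129 for late and 0.156 for mid-early particles. Rio2 stood alone at the top, and its reactivity of 10.9 was the highest value in the region. NAI also marked C1783, with rates of 0.242 in 80S, 0.524 in Rio1 and 0.44 in Tsr1, against DMSO rates of 0.138 in 80S and 0.132 in Tsr1; the reactivities were 2.99, 6.36 and 6.37. In Tsr1 the reagents parted, since 1M7 gave -1.91. At G1774, the stop 3′ of the acetylated C1773, the rates were 0.0339 in Nob1, 0.0207 in Rio1, 0.0156 in 80S-like and 0 in 80S, against 0.0116 in Enp1, 0.0362 in Ltv1, 0.0999 in Rio2 and 0.0277 in Tsr1, and the controls were 0.0128 for late and 0.0316 for mid-early particles. Rio2 was again the highest.

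The dimethylated adenines stopped the enzyme without any reagent. At the A1782 stop, 3′ of A1781, the untreated rate was 0.95 in the late control and 0.964 in 80S DMSO, against 0.977 in the mid-early control and 0.972 in Tsr1 DMSO. After 1M7 it was 0.981 in Nob1, 0.967 in Rio1, 0.969 in 80S-like and 0.879 in 80S, against 0.937 in Enp1, 0.978 in Ltv1, 0.974 in Rio2 and 0.978 in Tsr1. All these rates were 0.879 or more, and 80S was the lowest, so the stop was present in the columns of 20S pre-rRNA as well as in those of 18S rRNA. At A1781 the untreated rate was 0.215 in the late control and 0.569 in 80S DMSO, against 0.346 in the mid-early control and 0.306 in Tsr1 DMSO, so the 18S columns lay on both sides of the 20S ones. The 80S rate at A1781 was 0.0736 with 1M7 and 0.309 with NAI, and the Tsr1 rate 0.299 with 1M7 and 0.631 with NAI. The number of reads behind the stops next to it is unknown. The control of the DMS set lists 0 at all 24 nucleotides of h45.

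Pairs of particles were compared by counting nucleotides whose reactivity differed by 0.5 or more; each side is 1 column, so these counts have no replicate check. For 80S against 80S-like, 18 nucleotides of the region were higher and 42 lower (10.7% and 24.9%, against 13.5% and 14.4% of the molecule), and 13 of those lower were in h45, where 0 were higher. The largest gaps were A1781 (-6.66 in 80S, against 1.36 in 80S-like), U1738 and U1688 on the low side, and A1728 (1.45, against -2.43), A1655 and A1722 (1.75, against -0.821) on the high side. For 80S against Tsr1, 16 were higher and 22 lower (9.47% and 13.0%, against 8.12% and 9.06%). There G1768, A1689 and A1732 (1.65 in 80S, against -0.302 in Tsr1) led the higher side, and A1781, G1778 (-4.03, against -0.296) and U1779 (-4.5, against -0.952) the lower one.

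Between Rio1 and Nob1, 12 nucleotides were higher and 17 lower in Rio1 (7.10% and 10.1%, against 6.73% and 6%), and h45 held 10 of the lower ones and 0 of the higher ones. The h45 stops A1776 (-0.578 in Rio1, against 2.72 in Nob1) and U1779 (-1.62, against 1.65) lay furthest below, and G1768 stood furthest above (6.91, against 3.22), followed by U1758 (2.13, against 0.0102). Nob1 against Rio2 gave 27 higher and 15 lower (16.0% and 8.88%, against 11.6% and 8.78%), with C1783 lowest and A1781 highest (5.25 in Nob1, against 0.4 in Rio2). Rio2 against Ltv1 gave 20 higher and 20 lower (11.8% each, against 6.23% and 8%). That pair split by helix, since 12 of the higher and 0 of the lower ones were in h45, and 8 of the higher and 18 of the lower ones in h44; A1750 (-0.289 in Rio2, against 2.95 in Ltv1), A1763 (-1.08, against 1.99) and A1762 (-0.321, against 2.6) were the lowest. Tsr1 against Enp1 gave 11 higher and 20 lower (6.51% and 11.8%, against 5.95% and 3.72%), and 18 of the lower ones were in h44, among them A1755 and G1757 (0.384 in Tsr1, against 1.35 in Enp1). In h45 it ran the other way, with 8 higher and 1 lower, and the largest gaps of the pair were there, A1781 (-1.79 in Tsr1, against -5.33 in Enp1) and U1779 (-0.952, against -4.41) on the high side and C1783 (-1.91, against 0.239) on the low side. Pairs within a stage share their control, while Nob1 against Rio2 and 80S against Tsr1 do not.

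NAI, a second acylating reagent, gave 23 nucleotides higher and 21 lower in 80S than in Tsr1 (13.6% and 12.4%, against 9.73% and 12.6%). A1781 differed most, with a reactivity of -7.52 in 80S, against 6.72 in Tsr1, where the DMSO rates also differed, 0.569, against 0.306. U1769 followed (-2.85 in 80S, against 1.39 in Tsr1), and U1775 was higher in 80S (2.87, against 0.301). Rio1 against Tsr1 gave 18 higher and 18 lower (10.7% each, against 6.84% and 7.12%), and h45 held 9 of the lower ones and 0 of the higher ones. The stop at A1754, near the decoding adenines, stood furthest above (2.34 in Rio1, against -0.114 in Tsr1, whose NAI rate is listed at 0 there), and U1688 was among the 5 largest. Both use the Tsr1 DMSO column, and Rio1 with NAI is 1 sample.

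DMS methylates the Watson-Crick face of unpaired adenines and cytosines, and it was read in 80S up to A1750; after that most rates of the DMS column and its control are listed at 0 (34 and 36 of 50). The U1682 stop dominated, with a rate of 0.468 after DMS, against 0.0364 in the control; the base 5′ of it is A1681. The next were A1722 (0.162, against 0.0273) and A1732 (0.07, against 0.0152), also 3′ of adenines. With 1M7 the same 80S particles gave reactivities of 0.0236 at U1682, 1.75 at A1722 and 1.65 at A1732. At U1682 the DMS stop thus had no 1M7 counterpart in 80S, whereas the late 20S particles had 0.986 in Nob1, 0.723 in Rio1 and 0.557 in 80S-like. Of the 20 largest DMS differences, 18 had an adenine or cytosine 5′ of the stop (90%, 95% Wilson interval 69.9% to 97.2%, counting error only), 14 A and 4 C, against 49.6% of the 119 nucleotides read, and 10 had one at the stop itself.

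**Figure D5:**
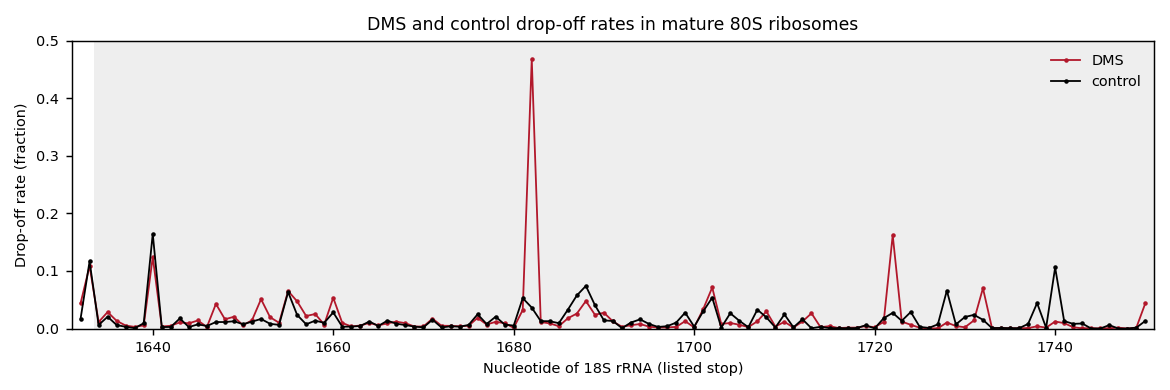
Drop-off rate (fraction) with DMS (red) and in its control (black) at each listed stop of the region up to A1750 in 80S ribosomes, h44 in grey. DMS exceeds the control most at U1682 (0.468, against 0.0364) and A1722 (0.162, against 0.0273), while the C1640 pause is in both.

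At the 3′ end, G1793 to A1800, rates were low throughout. The mean treated rate was 0.0036 in Nob1, 0.00856 in Rio1, 0.00537 in 80S-like and 0.00538 in 80S, against 0.00118 in the late control, and 0.00776 in Enp1, 0.00439 in Ltv1, 0.00377 in Rio2 and 0.00767 in Tsr1, against 0.00221 in the mid-early control. At all 8 nucleotides Nob1, Rio1, 80S-like, 80S, Enp1, Rio2 and Tsr1 were above their control, and Ltv1 was so at 7. Over the molecule the share above control ran from 39.5% in Tsr1 to 49.9% in Enp1. With NAI, Rio1 and Tsr1 were above the DMSO rate at 8 nucleotides and 80S at 3, against 36.9%, 38.3% and 45.1% of the molecule. The stop listed at A1800, the last nucleotide of the mature RNA, had reactivities of 0.0317 in Nob1, 0.085 in Rio1, 0.0212 in 80S-like and 0.167 in 80S, against 0.178 in Enp1, 0.00663 in Ltv1, 0.0381 in Rio2 and 0.087 in Tsr1, with no order by stage. As the labels' protocols name random hexamers as primers and the table gives no depth, the reads behind these rates are unknown.

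Reactive stops lay more often behind bases left unpaired in a predicted fold. RNAfold, run on h44 and h45 alone, left 62 of their 158 bases unpaired, and pairing was read at the base 5′ of the stop. In the late columns the reactive share of unpaired and paired bases was 35.5% and 18.8% in Nob1, 35.5% and 14.6% in Rio1, 27.4% and 13.5% in 80S-like, and 17.7% and 13.5% in 80S. In the mid-early columns it was 30.6% and 13.5% in Enp1, 35.5% and 10.4% in Ltv1, 27.4% and 13.5% in Rio2, and 22.6% and 6.25% in Tsr1. The unpaired share was higher in 8 of 8 columns, by a median of 16.5 percentage points (SD 6.05 over the columns), and least in 80S. The fold is a prediction of free RNA and knows neither proteins nor modifications.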

How the data were processed

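The deposited table lists drop-off rates as a fraction between 0 and 1, 17 columns over 1800 nucleotides, each the mean of the authors over the samples of 1 group. The submitters' processing notes name Novoalign 2.07. For the rate formula, the reference, the averaging and the read depth nothing is given in the sources used here, so no counting interval can be set for a rate. No genome build is named with the table, and no chromosomal coordinates are given. Nucleotide 1, listed at 1 in every column, was left out.

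Members were taken by position. Reactivity was computed as defined in the results. The 4 late and 4 mid-early 1M7 columns were compared on log2(max(reactivity, 0) + 0.1) by limma 3.58.1 (R 4.3.3, mean-variance trend) over the 504 nucleotides whose reactivity averaged 0.1 or more, with Benjamini-Hochberg adjustment at 0.05. The scale understates changes of low values. The fit was tested on simulated data. Pairs of columns, NAI, DMS and untreated rates have 1 column a side and no test. Pairing came from RNAfold of ViennaRNA 2.7.2, and the tables from Python 3.11.15 with numpy 2.4.6, pandas 2.3.3 and scipy 1.17.1.

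Nucleotides that could be named were those past the threshold, listed modified and decoding sites with the stop 3′ of each, the 10 of highest mean 1M7 reactivity, the 3 largest differences each way of each pair (5 for NAI), the 5 highest untreated rates of each column and the 10 largest DMS differences. The region, the lists and the rule were chosen with earlier results of these data known. C1686, G1699, U1710, A1712, G1786, U1687, U1723 and A1701 were named after their values were seen. Alternatives tried were the control, the divisor, the pseudocount, the scale, the filter, the stop numbering, and leaving out purifications.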

Additional observations from a re-analysis of the deposited data

Results flagged for a closer look

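Outlying purifications were looked for at 22 nucleotides, 1 test per stage and 44 in all, by Dixon's gap ratio among the 4 columns of a stage; 5 passed, and chance flags about 1 in 20 groups. At the stop listed at G1645, on the 5′ strand of the decoding site, 80S had a reactivity of 0.54 while the other late purifications lay between -0.22 and -0.11. At the same stop Tsr1 had 0.28 while the other mid-early purifications lay between 0.037 and 0.062. At the stop listed at C1773, in h45, Rio2 had 0.61 while the other mid-early purifications lay between -0.41 and -0.29. At the A1782 stop, whose rate was close to 1, 80S had -3.34 while the other late purifications lay between 0.42 and 0.79, and Enp1 had -1.24 while the other mid-early purifications lay between -0.098 and 0.053.

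At 3 nucleotides of the region every late column lay on one side of its control and every mid-early column on the other. How often this held over the whole molecule was not counted, so the number cannot be judged against it. The mean reactivity at U1676 was 0.094 in late and -0.14 in mid-early particles. Its controls were 0.0203 for late and 0.0282 for mid-early particles. The treated rates at U1676 overlapped, at 0.0209 to 0.0257 in late and 0.0218 to 0.0257 in mid-early particles. At G1697 it was -0.055 in late and 0.11 in mid-early particles. At A1721 it was -0.45 in late and 0.17 in mid-early particles; there the controls were 0.0342 for late and 0.00601 for mid-early particles, and the treated rates overlapped, at 0.00217 to 0.0339 in late and 0.00623 to 0.0204 in mid-early particles. These 3 did not reach the mean needed for the stage test, and the difference was not tested. They were named after their values were seen.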

How the results depend on the processing

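The settings were listed with earlier results of these data known. The count of 1 rise called by limma in the region became 0 without control subtraction and 0 with 1 common control, and 2 without both Fun12 purifications (U1687 and G1768). Leaving out 1 purification at a time gave 1 to 4 rises and 0 to 1 falls, and the counts moved only without 80S; without control subtraction there was 1 fall, U1752. The log2 difference at G1768 was 0.84 without subtraction and 2.18 with 1 common control, and it ran from 4.20 to 5.17 when single purifications were left out. The median number of reactive nucleotides over the 8 1M7 columns, 33.5, was 20.5 up to A1750 and 21.5 at a threshold of 0.5. Without subtraction the nucleotides differing by 0.5 or more numbered 19 for 80S against 80S-like (60 with it), 15 for Rio1 against Nob1 (29), 14 for Nob1 against Rio2 (42), 22 for Rio2 against Ltv1 (40), 7 for Tsr1 against Enp1 (31) and 17 for 80S against Tsr1 (38). For NAI, 80S against Tsr1 gave 17 without subtraction and 27 with the mean of both DMSO columns, against 44. All of the 10 strongest DMS stops (100%) had A or C 5′ of them. The cause of these moves was not tested. The other 72 recomputed counts and main values were classed as the same, but some of these counts still changed. With NAI, Rio1 against Tsr1 gave 50 with the 80S DMSO column for Rio1 and 27 without subtraction, against 36. With 1M7, 80S against Tsr1 gave 48 with 1 common control and 29 with 1 common divisor, against 38. No paired analysis was possible because the table gives 1 mean per group and no replicate values. Depth is unknown, and the low rates after C1783 and the zeros of the DMS columns limit the 3′ end most. In every column all rates listed at 0 lay in this region. Outside the DMS set there were 9 in 80S with 1M7 and 9 in 80S DMSO. With NAI there were 12 in 80S, 15 in Rio1 and 8 in Tsr1, so values that rest on these columns are limited too.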
